A study of Mus musculus with 7 samples.

Results

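The Eph receptor genes examined here are Epha3, Epha4, Epha5, Epha6, Epha7, Epha8, Ephb1, Ephb2 and Ephb3. A peak was assigned to a gene when its centre fell between 50 kb before the gene and 50 kb after it (mm10, GENCODE M21). By this rule 37 of 33442 peaks of cerebellar granule neuron progenitors (GNPs) were found at the 9 genes. They were 32 of 31400 H3K27ac peaks, 5 of 1946 Chd7 peaks of WT cells and 0 of 96 Chd7 peaks of Chd7-deficient cells. No peak was assigned to more than 1 of the genes.

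Chromatin immunoprecipitation with sequencing (ChIP-seq) maps the DNA bound by a protein or carrying a histone mark, and a peak is a place where the recovered fragments pile up above the local background. GNPs were isolated from mice labelled C57BL/6 (C57BL/6N in the study's methods) at postnatal day 7 (P7), and cerebellar granule neurons (CGNs) were obtained by culturing GNPs for 48 h without Shh, the mitogen that keeps them dividing. WT cells carried unrecombined Chd7 f/f alleles. Chd7-deficient cells came from Atoh1-Cre::Chd7 f/f mice, in which Cre, driven by Atoh1 in the granule lineage, recombines the floxed alleles. Both genotypes thus came from f/f mice. The paper reports some Chd7 protein left in the posterior lobe of these mutants, probably because recombination is less efficient. Chd7-deficient samples may therefore include cells that kept Chd7. Chd7 was mapped in GNPs of both genotypes, H3K27ac in WT GNPs, and the topoisomerase Top2b in CGNs of both genotypes, with 1 library per condition. With 1 library per condition there is no test between conditions, and the intervals given below cover counting error only.

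Eph receptors are receptor tyrosine kinases that bind membrane-anchored ephrins on neighbouring cells. EphA receptors mainly bind GPI-linked ephrin-A ligands and EphB receptors mainly bind transmembrane ephrin-B ligands, with EphA4 binding both classes. Their signalling steers growth cones, sorts cells at tissue boundaries and shapes synapses, and in the developing cerebellum it takes part in the topography of axonal projections. H3K27ac marks active promoters and enhancers, Chd7 is an ATP-dependent nucleosome remodeller, and Top2b is the type II topoisomerase of postmitotic neurons.

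The 5 Chd7 peaks of WT GNPs are the only Chd7 peaks at these genes, and the DNA at their summits is shown first. Each window runs from 100 bases before the summit to 100 bases after it, on the plus strand of GRCm38 as given by RefSeq. Capitals mark matches on either strand to the motifs searched, which were the E-boxes CAGATG and CAGCTG of bHLH factors, the nuclear factor I sites TTGGCA and its full palindrome, CAGCAGG of Zic factors, and ACAAAG and ACAATG of Sox factors. TTGGCA can be part of the full nuclear factor I site, and CAGCTG reads the same on both strands and was counted a single time.
Epha6, 3′ flank, chr16:59604500-59604700: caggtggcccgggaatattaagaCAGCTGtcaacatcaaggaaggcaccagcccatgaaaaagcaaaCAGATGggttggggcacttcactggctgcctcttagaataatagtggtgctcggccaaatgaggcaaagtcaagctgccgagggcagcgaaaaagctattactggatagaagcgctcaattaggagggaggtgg
Epha6, intron, chr16:60087019-60087219: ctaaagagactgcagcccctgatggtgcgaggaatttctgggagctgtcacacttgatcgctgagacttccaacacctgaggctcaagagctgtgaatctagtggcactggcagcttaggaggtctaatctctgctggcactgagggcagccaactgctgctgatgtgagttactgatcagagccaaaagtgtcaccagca
Epha6, intron, chr16:60102262-60102462: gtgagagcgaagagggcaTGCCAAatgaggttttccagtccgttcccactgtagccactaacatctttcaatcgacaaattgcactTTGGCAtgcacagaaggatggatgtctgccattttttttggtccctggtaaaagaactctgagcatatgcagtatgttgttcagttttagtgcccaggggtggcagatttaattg
Epha7, promoter, chr4:28812953-28813153: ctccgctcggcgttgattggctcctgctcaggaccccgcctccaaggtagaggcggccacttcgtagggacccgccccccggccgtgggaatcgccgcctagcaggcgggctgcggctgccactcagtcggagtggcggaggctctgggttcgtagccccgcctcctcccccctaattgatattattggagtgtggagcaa
Ephb1, intron, chr9:101939161-101939361: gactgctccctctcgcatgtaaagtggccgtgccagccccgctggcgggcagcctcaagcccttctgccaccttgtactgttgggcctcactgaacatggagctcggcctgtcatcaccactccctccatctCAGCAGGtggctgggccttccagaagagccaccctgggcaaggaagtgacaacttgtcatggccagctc

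The windows shared no motif with each other. The 3′ flank window of Epha6 held both E-boxes, with CAGCTG starting 77 bases and CAGATG 33 bases before the summit. The Epha6 window at chr16:60102262-60102462 held TTGGCA on both strands, with starts 82 and 14 bases before the summit. The Ephb1 window held CAGCAGG 32 bases after the summit. No motif was found in the Epha7 promoter window or in the Epha6 window at chr16:60087019-60087219. Over 1902 windows of all WT Chd7 peaks on chromosomes 1 to 19, X and Y, CAGATG was present in 23.7%, CAGCTG in 19.5%, TTGGCA in 18.9%, the full nuclear factor I site in 0.0526%, CAGCAGG in 9.94%, ACAAAG in 13.2% and ACAATG in 6.73%. Among the 5 Eph receptor windows, the E-boxes, TTGGCA and the Zic site were each found in 1 window and the other sites in 0.

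Base composition separated the windows into a CpG-rich one and the rest. The Epha7 promoter window was 66.7% G or C with 17 CpG dinucleotides, against a median of 56.2% and 6 CpG over all 1902 windows. The Ephb1 window was 61.7% G or C with 5 CpG. The 3 Epha6 windows were between 45.3% and 52.7% G or C, with 2 to 5 CpG. Repeat-masked sequence made up 0% to 14.8% of the 5 peaks, and the median over all Chd7 peaks was 5.64%.

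To ask which Eph receptor genes carry active chromatin in GNPs, H3K27ac peaks were counted at each gene. Ephb2 had 12 H3K27ac peaks and Ephb1 had 8, which together made up 20 of the 32 peaks (62.5%). Epha3, Epha6, Epha7 and Epha8 had 3 peaks each, and Epha4, Epha5 and Ephb3 had none. A peak was therefore present at 6 of 9 genes (66.7%, 95% Wilson interval 35.4 to 87.9%), compared with 73.5% of 21911 protein-coding genes, a share inside that interval. Ephb2 had more H3K27ac peaks than 96.5% of protein-coding genes and Ephb1 more than 89.1%.

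**Figure D1:**
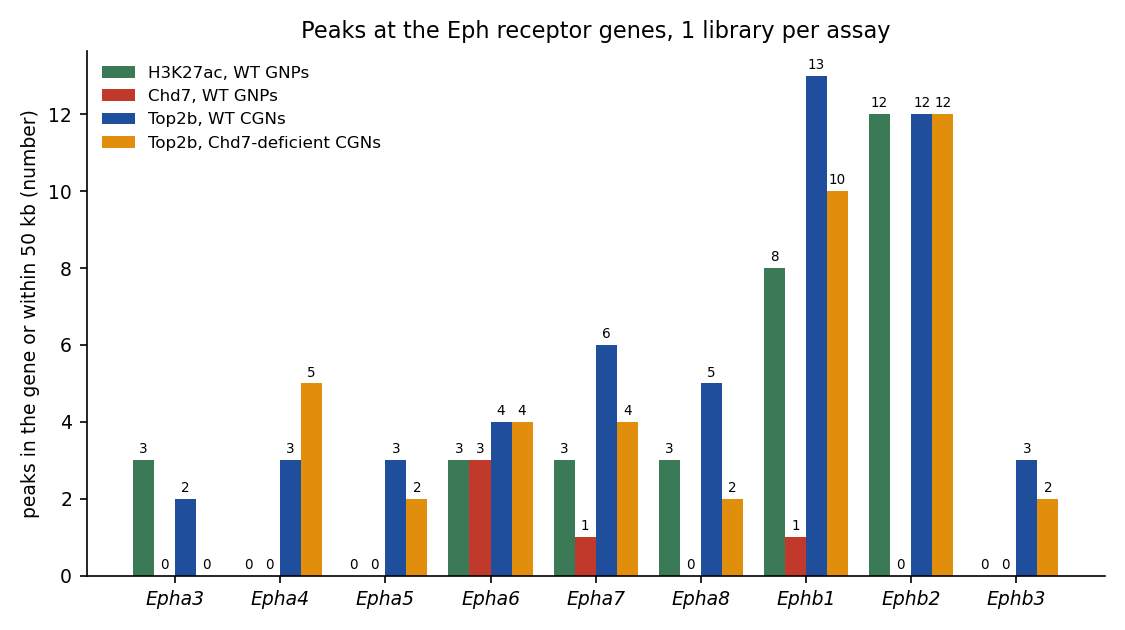
Number of peaks (y axis) at each Eph receptor gene and its 50-kb flanks (x axis), by assay, with 1 library per assay and the number above each bar. Ephb1 and Ephb2 have the most H3K27ac and Top2b peaks, and Chd7 peaks stand at Epha6, Epha7 and Ephb1 only.

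Most of these genes are long, so counts were also read per length. The genes span 18.55 kb (Ephb3) to 952 kb (Epha6), with a median of 188 kb against 17.4 kb over all protein-coding genes, and 7 of the 9 exceed 100 kb. Within the genes and their flanks, the median density was 0.713 H3K27ac peaks per 100 kb, against 1.59 over protein-coding genes. Ephb2 stood at 4.16 peaks per 100 kb, above 81.0% of protein-coding genes. Epha8, a short gene, followed with 2.35 and Ephb1 with 1.5. Epha6, the longest gene, had 0.285 per 100 kb. Over the 9 regions of 3504.5 kb in all, H3K27ac peaks covered 0.905% of the bases, from 0% at Epha4, Epha5 and Ephb3 to 4.35% at Ephb2.

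The strength of the peaks was near that of the whole table. Pileup counts the fragments that cover the summit, and in the H3K27ac library the peak caller had scaled it. The median pileup of the 32 peaks was 33.4, with a range from 16.94 to 186.3, and that of all H3K27ac peaks was 32.0. Their median fold enrichment over local background was 4.26, against 4.35 for all peaks. The median width was 714 bp against 646 bp.

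Ephb2, an EphB receptor of axon guidance and synapse formation (chr4:136647539-136835988, minus strand), had the strongest peak of the family. It lay over the promoter at chr4:136834121-136837073, with the summit 125 bp upstream of the 5′ end. This peak was 2953 bp wide, with a pileup of 186.35 and a fold enrichment of 26.24. Its −log10 q-value of 195.9 ranked 397 among 31400. Within the gene, further peaks reached pileups of 79.06 over an exon annotated as untranslated and 72.47 in an intron, 183.4 and 136.9 kb from the 5′ end. The remaining intragenic peaks of Ephb2 had pileups between 20.71 and 44.24. A peak with a pileup of 180.71 in the 3′ flank lay 82 bp from a start of Kdm1a, a histone demethylase gene. A weak peak in the 5′ flank, with a pileup of 20.71, was nearer to C1qb than to Ephb2. No Chd7 peak was found at Ephb2, and the nearest was 773 kb away.

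Ephb1, the EphB receptor known for routing retinal axons at the optic chiasm (chr9:101922128-102354693, minus strand), carried 8 H3K27ac peaks, each with its centre inside the gene. The promoter peak at chr9:102353394-102354563 had a pileup of 44.24 and a fold enrichment of 4.568. The strongest peak was at the other end of the gene, 415.9 kb from the 5′ end, with a pileup of 93.18 and a fold enrichment of 10.46. Its summit was 339 bp from a start of 9630041A04Rik, a gene that overlaps Ephb1 there, so the receptor and the overlapping gene cannot be told apart as its owner. The other 6 peaks had pileups between 18.82 and 41.41.

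Epha7, an EphA receptor with repulsive roles in the cortex and neural tube (chr4:28813131-28967499, plus strand), had an acetylated promoter. The promoter peak began 52 bp downstream of the 5′ end and had a pileup of 43.29 and a fold enrichment of 8.361. A second peak with its summit 2.089 kb into the gene was stronger, with a pileup of 73.41 and a fold enrichment of 13.96. Its summit was 209 bp from another annotated start of Epha7. The third, 88.67 kb into the gene, had a pileup of 22.59.

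At the other EphA genes, H3K27ac lay away from the promoter. Epha3, an ephrin-A receptor of axon guidance (chr16:63543534-63864175, minus strand), had 3 intronic peaks with pileups of 30.12, 17.88 and 16.94, the nearest 57.1 kb from its 5′ end. Epha6, an ephrin-A receptor of the nervous system (chr16:59653483-60605531, minus strand), had 1 peak in the gene, over a coding exon, with a pileup of 17.88. Its other peaks were in the 3′ flank, with a pileup of 103.53 at 71 bp from a start of Arl6 and 87.53 at 3.92 kb from a start of Crybg3. Epha8, a receptor of midbrain axon projections (chr4:136929419-136956816, minus strand), had adjacent intronic peaks, with a pileup of 24.47 at 12.05 kb and of 37.65 at 11.58 kb from the 5′ end. The other Epha8 peak, with a pileup of 50.82, was in the 5′ flank inside Zbtb40.

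Epha4 (chr1:77367185-77515088), Epha5 (chr5:84054761-84417382) and Ephb3 (chr16:21204755-21223305) had no H3K27ac peak. Epha4 is the EphA receptor that also binds ephrin-B ligands, Epha5 is a brain-rich EphA receptor of topographic mapping, and Ephb3 is best known for sorting intestinal crypt cells. The nearest H3K27ac peak was 217 kb from Epha4 and 1000 kb from Epha5. At Ephb3 it was 50.9 kb from the gene, just outside the window.

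**Figure D2:**
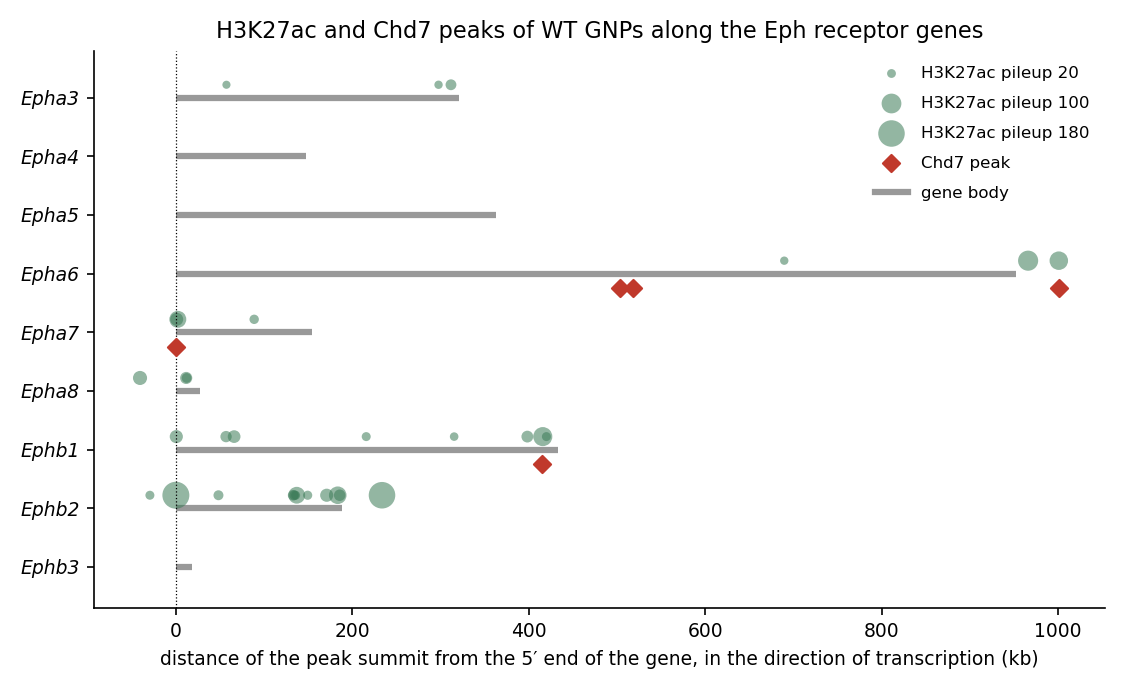
Position of H3K27ac peaks (green circles, area in proportion to pileup) and Chd7 peaks (red diamonds) of WT GNPs relative to the 5′ end of each gene (x axis, kb in the direction of transcription), with gene bodies in grey. The largest circles are the Ephb2 promoter peak (186.35) and the Kdm1a peak in the 3′ flank of Ephb2 (180.71), and the rows of Epha4, Epha5 and Ephb3 are empty.

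By the promoter alone, H3K27ac was present within 1 kb of the 5′ end at 3 of 9 genes, Epha7, Ephb1 and Ephb2 (33.3%, interval 12.1 to 64.6%). Over all protein-coding genes the share was 42.9%. Of the 32 peaks, 21 had their summit in an intron, 3 in an untranslated exon and 2 in a coding exon, and 3 lay upstream and 3 downstream of the gene. The summit was more than 1 kb from any protein-coding start for 25 of 32 peaks (78.1%, interval 61.2 to 89.0%), against 64.3% of all H3K27ac peaks. Both promoter and distal shares of the whole set lay inside the intervals of the receptor genes.

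CpG-dense promoters were found with and without the mark. RefSeq promoters of 250 bases before to 50 after the start were matched for all 9 genes, with 10 promoters in all because Epha7 has a pair. A promoter was called CpG-dense when it was over 50% G or C with an observed-to-expected CpG ratio over 0.6. This held for 8 of the 10 promoters, against 33.3% of 32851 promoters. By gene it was 7 of 9, since both Epha7 promoters were CpG-dense and overlap each other. The 33.3% is a share of promoters and not of genes. The exceptions were Epha4 and Epha6, with ratios of 0.565 and 0.55. Epha3, Epha5, Epha8 and Ephb3 were CpG-dense without promoter H3K27ac. The promoters of Ephb2, with the strongest mark, and of Epha5, with none for 1000 kb, are shown on the strand of the gene with CpG in capitals (GRCm38.p6).
Ephb2, chr4:136835963-136836262: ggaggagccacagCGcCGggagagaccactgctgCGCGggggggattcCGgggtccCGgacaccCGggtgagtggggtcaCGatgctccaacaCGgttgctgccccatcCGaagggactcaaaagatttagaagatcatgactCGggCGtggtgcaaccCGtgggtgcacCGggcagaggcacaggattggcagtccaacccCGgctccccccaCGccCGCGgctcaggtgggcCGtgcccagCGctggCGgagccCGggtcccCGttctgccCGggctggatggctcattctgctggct
Epha5, chr5:84417333-84417632: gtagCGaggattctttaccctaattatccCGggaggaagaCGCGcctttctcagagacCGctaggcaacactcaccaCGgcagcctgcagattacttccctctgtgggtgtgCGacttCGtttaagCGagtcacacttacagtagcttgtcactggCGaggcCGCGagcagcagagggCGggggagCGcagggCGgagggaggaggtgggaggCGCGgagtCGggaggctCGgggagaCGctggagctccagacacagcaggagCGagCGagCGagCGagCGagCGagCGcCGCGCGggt
The Ephb2 promoter held 24 CpG at 68.7% G or C, and the Epha5 promoter held 30 CpG at 64.3%. The Epha8 promoter was the most extreme, with 56 CpG at 84.3%.

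Broad stretches of H3K27ac were sought by joining peaks within 12.5 kb and ranking the 17539 resulting regions by width times pileup. The cut at the point where the ranked curve reaches slope 1 left 612 regions. Of the Eph receptor genes, only Ephb2 was overlapped by such a region, at rank 579, and this region was the promoter peak alone, 2.95 kb long. The share of all protein-coding genes overlapped by such a region is not given here, so this count has no reference. No Eph receptor gene was overlapped (0) when peaks within 2 kb of a start were left out or when regions were ranked by width only. The longest joined region in an Eph receptor gene, 17.0 kb with 5 peaks within Ephb2, ranked 4190. The region beside Crybg3 in the 3′ flank of Epha6 ranked 880.

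To see where Chd7 bound, the WT peaks were described individually. Chd7 was present at Epha6 with 3 peaks, Epha7 with 1 and Ephb1 with 1. This made 3 of 9 genes (33.3%, interval 12.1 to 64.6%), against 14.3% of protein-coding genes, whose regions are mostly shorter. The 14.3% is inside the interval. The genes without a peak had their nearest one 217 kb (Epha4) to 1090 kb (Epha5) away.

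The strongest Chd7 peak of the family lay in an Epha6 intron at chr16:60101992-60102784, 503.2 kb into the gene. Its pileup was 33 fragments (95% exact Poisson interval 22.7 to 46.3), its fold enrichment 7.64 and its −log10 q-value 16.27. By q-value it ranked 43 of 1946, so 2.16% of the WT Chd7 peaks were above it. No H3K27ac peak overlapped it, and the nearest was 186 kb away. The other intronic Epha6 peak, at chr16:60086926-60087351, had a pileup of 18 (10.7 to 28.4), a fold enrichment of 3.259 and rank 1745, and it too was 171 kb from H3K27ac. The third Epha6 peak, at chr16:59604379-59604855, had a pileup of 24 (15.4 to 35.7) and a fold enrichment of 4.288. It was 48.88 kb beyond the 3′ end of Epha6, lay wholly within the H3K27ac peak of pileup 87.53, and was nearer to Crybg3 (3.62 kb) than to any Epha6 start.

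At Epha7 the Chd7 peak sat on the promoter, at chr4:28812799-28813355, with the summit 78 bp upstream of the 5′ end. Its pileup was 21 (13.0 to 32.1), its fold enrichment 5.588 and its rank 295. It was placed upstream of the acetylated stretch, sharing 173 bp (31.1% of its width) with the promoter H3K27ac peak. At Ephb1 the peak lay at chr9:101939195-101939498, 780 bp from the 9630041A04Rik start, wholly within the H3K27ac peak of pileup 93.18. It was the weakest by q-value, with a pileup of 19 (11.4 to 29.7), a fold enrichment of 3.067 and rank 1795.

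**Figure D3:**
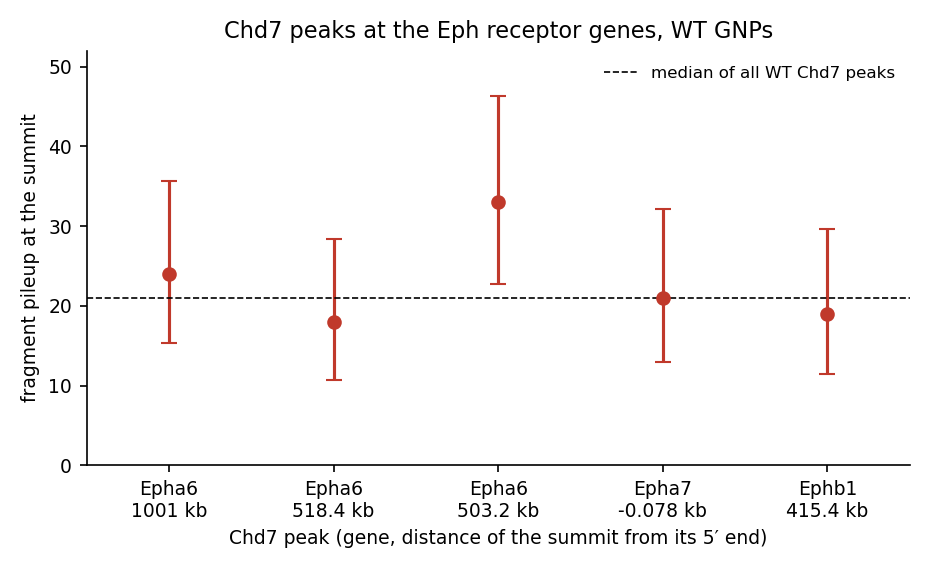
Fragment pileup at the summit (y axis) of the 5 Chd7 peaks of WT GNPs at Eph receptor genes, labelled by gene and distance of the summit from its 5′ end (x axis). Bars are 95% exact Poisson intervals and the dashed line is the median of all WT Chd7 peaks (21), which lies below the interval of the Epha6 peak at 503.2 kb and inside the intervals of the other 4.

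In median height the 5 Chd7 peaks of the family were near the whole set. Their median pileup was 21, the same as that of all 1946 peaks, and their median fold enrichment was 4.29 against 4.07. H3K27ac overlapped 3 of 5 (60.0%, interval 23.1 to 88.2%), against 77.9% of all WT Chd7 peaks. The summit was more than 1 kb from any protein-coding start at 3 of 5, against 57.4%. Seen from the mark, 3 of 32 H3K27ac peaks overlapped a Chd7 peak (9.38%, interval 3.24 to 24.2%), against 4.98% of all H3K27ac peaks. The share of all peaks lay inside the interval of the receptor genes in each of these comparisons. With 5 Chd7 peaks the intervals are wide, so they cannot show whether the shares are alike.

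In Chd7-deficient GNPs no Chd7 peak was found at any Eph receptor gene, and none of the 5 WT peaks overlapped one. Such overlap was rare in the whole series too, at 3.19% of WT Chd7 peaks, and 0.205% of protein-coding genes had a peak in Chd7-deficient GNPs. The pileups at the 5 places in Chd7-deficient cells are not in the peak tables. Of the 96 peaks of Chd7-deficient GNPs, 51 had a pileup at or below 33, the highest of the 5 Eph receptor peaks. Only 15 were at or below 18, the lowest of the 5. The −log10 q-value was under the lowest of the 5 (2.222) for 4 of the 96. The lowest local background, in fragments, was 2.604 in the WT library and 2.246 in the library of Chd7-deficient cells, and the part of depth in the absence of peaks was not tested.

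Top2b was used to ask what the same genes look like in postmitotic neurons. The tables give positions of fixed width, 396 bp in WT and 400 bp in Chd7-deficient CGNs, with no height. Every Eph receptor gene had a WT Top2b peak (9 of 9, interval 70.1 to 100%), against 62.2% of protein-coding genes, whose regions are mostly shorter. The genes had 51 WT peaks, from 2 at Epha3 to 13 at Ephb1. Their median density was 2.36 peaks per 100 kb, against 0.792 over protein-coding genes, with 0.38 at Epha6 and 4.16 at Ephb2. Genes without H3K27ac in GNPs were included, with 3 peaks each at Epha4, Epha5 and Ephb3.

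Of the 51 WT Top2b peaks, 27 lay in introns, and 14 were nearer to a start of another gene. At Epha8 all 5 were outside the gene, with 1 in the 5′ flank inside Zbtb40 and 4 in the 3′ flank, 8.992 to 35.29 kb beyond the end of the gene. By start site these 4 were nearest to C1qa or C1qc, complement genes of microglia. Top2b lay within 1 kb of the 5′ end at Epha5, Epha7, Ephb1 and Ephb2 (4 of 9, 44.4%, interval 18.9 to 73.3%), against 9.66% of protein-coding genes, which is below the interval. Of the H3K27ac peaks of the family, 9 of 32 overlapped a WT Top2b peak (28.1%, interval 15.6 to 45.4%), against 9.38% of all H3K27ac peaks, also below the interval. Of these 9, 5 were at Ephb2, so 4 of 20 peaks at the other genes overlapped Top2b, and 4 of the 9 were nearer to a start of another gene. The interval takes each peak as independent, although 12 of the 32 were at Ephb2. In the other direction, 9 of 51 Top2b peaks overlapped H3K27ac (17.6%), close to the 17.4% of all WT Top2b peaks. A CTCF consensus was found in 1 of the 51 peaks, in Epha6 at chr16:59683408-59683803, and in 3.15% of 17020 WT Top2b peaks.

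In Chd7-deficient CGNs there were 41 Top2b peaks at the 9 genes, 0.804 times the WT number. Over the whole tables the change went the other way, from 17030 to 21505 peaks, a ratio of 1.26. Counts were lower at 6 genes (Epha3, Epha5, Epha7, Epha8, Ephb1 and Ephb3), equal at Epha6 and Ephb2, and higher at Epha4. The same split over all protein-coding genes is not given here, so it cannot be said whether this one is unusual. Epha3 went from 2 peaks to 0, Epha8 from 5 to 2 and Ephb1 from 13 to 10. Epha4 went from 3 to 5. The difference in number stood among peaks nearer to a start of another gene, which were 14 of 51 in WT and 4 of 41 in Chd7-deficient CGNs. The peaks nearest to a start of the receptor gene itself numbered 37 in each genotype, but this equal total was made of changes in both directions. Such peaks fell at Epha3 (2 to 0), Epha5 (3 to 2), Epha7 (6 to 4), Ephb1 (10 to 9) and Ephb3 (3 to 1). They rose at Epha4 (3 to 5), Epha6 (2 to 3), Epha8 (0 to 1) and Ephb2 (8 to 12). A Top2b peak was present at 8 of 9 genes (88.9%), against 70.9% of protein-coding genes.

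Few called positions overlapped between the genotypes. This compares calls and not signal, so a place without an overlapping call may still hold Top2b below the threshold. By a comparison of signal at Top2b sites, the paper reported a change with Chd7 loss at a minority of them. A position shared with Chd7-deficient CGNs was found for 10 of the 51 WT peaks (19.6%, interval 11.0 to 32.5%), against 16.8% of all WT Top2b peaks. Of the 41 peaks of Chd7-deficient CGNs 10 overlapped a WT peak (24.4%, interval 13.8 to 39.3%). Over all Top2b peaks of Chd7-deficient CGNs the share was 13.3%, just below that interval. Overlap was low over the whole tables too. With 1 library per genotype, the effect of Chd7 loss, variation between libraries and the calling threshold cannot be told apart. Shared positions included places within 1 kb of the starts of Epha5, Epha7 and Ephb1 and a place 1.357 kb upstream of Epha4. At Epha5 the WT peak was centred 38 bp upstream of the 5′ end and shared 331 bp with the peak of Chd7-deficient CGNs, over the promoter sequence printed above.

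**Figure D4:**
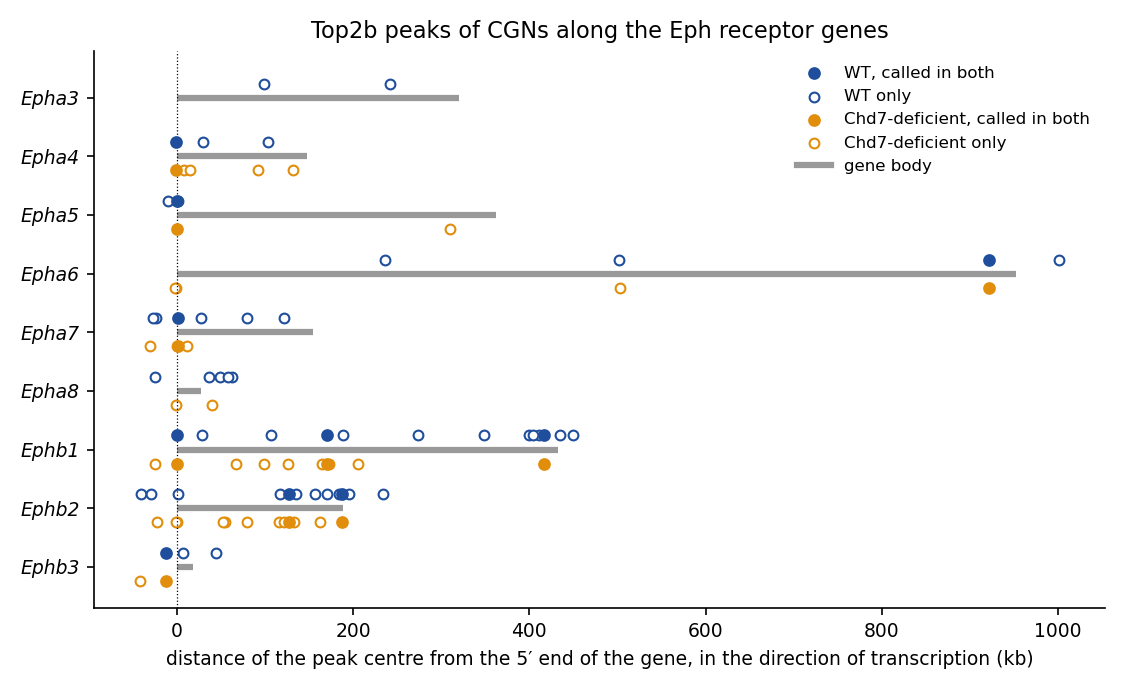
Position of Top2b peaks of WT CGNs (blue, above each gene) and Chd7-deficient CGNs (orange, below) relative to the 5′ end of each gene (x axis, kb in the direction of transcription). Filled circles overlap a peak of the other genotype, as 10 of 51 WT peaks do, and open circles do not.

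Near the 5′ end, Top2b was found at more of the genes in Chd7-deficient CGNs, 6 of 9 (66.7%, interval 35.4 to 87.9%) with the addition of Epha6 and Epha8. The share of all protein-coding genes moved the same way, from 9.66% to 20.3%. At Epha6 the peak of Chd7-deficient CGNs was centred 933 bp upstream of the 5′ end and the nearest WT peak was 237 kb away. At Ephb2 the start carried Top2b in both genotypes without overlap, with the nearest peaks 0.084 kb apart.

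Top2b was then read at the 5 Chd7 peaks. In WT CGNs a Top2b peak overlapped 1 of them, in the 3′ flank of Epha6, where 363 bp were shared (20%, interval 3.62 to 62.4%), against 16.6% of all WT Chd7 peaks. In Chd7-deficient CGNs the nearest Top2b peak to this place was 3.24 kb away. In the same cells a Top2b peak overlapped 2 of the other Chd7 peaks (40.0%, interval 11.8 to 76.9%), against 34.2% of all WT Chd7 peaks. At the strongest Epha6 peak all 400 bp of the Top2b peak of Chd7-deficient CGNs lay inside the Chd7 peak, while the nearest WT Top2b peak was 0.298 kb outside it. At the Epha7 promoter 364 bp were shared in Chd7-deficient CGNs, and the nearest WT Top2b peak was 0.579 kb away, over the acetylated stretch of the gene. That WT peak was also called in Chd7-deficient CGNs, with 247 bp shared, so the promoter peak was an additional call. Both shares were near those of all Chd7 peaks.

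**Figure D5:**
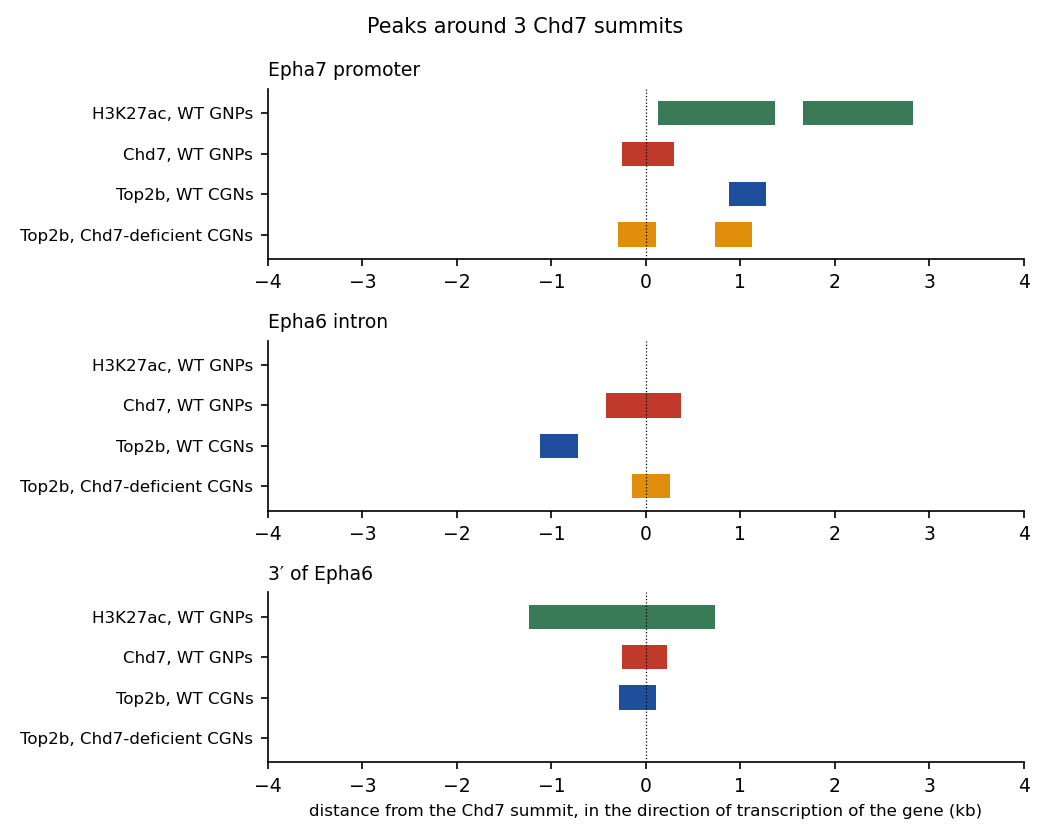
Peaks of 4 libraries (rows, bars from peak start to peak end) around the summits of 3 Chd7 peaks, at the Epha7 promoter, in the Epha6 intron and 3′ of Epha6 (x axis, kb from the Chd7 summit in the direction of transcription). Top2b of Chd7-deficient CGNs covers the summit in the upper and middle panels, and Top2b of WT CGNs covers it in the lower panel.

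The rest of the Eph and ephrin system was summarised by counts, to be read against 73.5% of protein-coding genes with H3K27ac, 42.9% with it at the promoter, 14.3% with Chd7 in WT GNPs and 0.205% with Chd7 in Chd7-deficient GNPs. Of the 5 other Eph receptors (Epha1, Epha2, Epha10, Ephb4 and Ephb6), 4 had an H3K27ac peak, 2 had one at the promoter and 1 had a Chd7 peak, Epha10, with a fold enrichment of 3.291 and a nearer start of another gene. Of the 8 ephrin ligands, 8 had H3K27ac, 5 had it at the promoter and 3 had Chd7. These were Efna2 (fold enrichment 3.515), Efnb2 (3.891) and Efnb3 (3.051), and of them only the Efnb2 peak was nearest to a start of the ligand gene itself. Of 28 genes that act with or downstream of Eph receptors, 25 had H3K27ac, 23 had it at the promoter and 10 had Chd7. None of the 3 lists had a Chd7 peak in Chd7-deficient GNPs.

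The labelled cell type was checked by markers. Promoter H3K27ac was present at 7 of 7 granule lineage genes (Atoh1, Pax6, Zic1, Zic2, Barhl1, Neurod1 and Mycn). It was present at 0 of 4 Purkinje cell genes, 1 of 3 genes of inhibitory interneuron progenitors (Pax2), 1 of 4 astroglial genes (Fabp7), 1 of 4 oligodendrocyte lineage genes (Mbp), 0 of 3 microglial genes and 0 of 2 endothelial genes. In a mixed sample, a mark in fewer cells cannot be told apart from a weaker mark in each cell.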

How the data were processed

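Peak tables of 5 libraries were used, 1 per condition. Per the labels and the study's methods, the authors trimmed the reads with Trim Galore, mapped them to mm10 with Bowtie 1.0.0 keeping single alignments, and called peaks with MACS2 (Chd7, H3K27ac) or HOMER (Top2b); tools are as in the submitters' processing notes. The deposited pileup is a coverage signal. The authors deposited −log10 p-values, the fold enrichment (a ratio to local background) and −log10 q-values without decimal points, which were restored by dividing by 100000. Recomputed −log10 p-values differed by at most 0.003. The study's methods name input libraries and a minimum of mapped reads, but the tables hold neither the read number of each library nor the control given to MACS2. Top2b tables hold positions only.

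Peaks were assigned by centre to genes with 50 kb on each side, and overlap meant at least 1 bp. Shares have 95% Wilson intervals and Chd7 pileups exact Poisson intervals, covering counting error only. The members and lists were chosen with earlier results of these data known. The rule for named genes covered the 9 members, other Eph receptors and ephrins with a Chd7 peak, the 3 signalling genes of highest Chd7 fold (not reported here), every member Chd7 peak, and each member's highest and promoter H3K27ac peaks; other single peaks were chosen after their values were seen. Overlap, window, joining and motif functions were tested on simulated peaks. The input libraries were not used here. Tools were scipy 1.17.1, pandas 2.3.3 and matplotlib 3.10.9 under Python 3.11.15, with numpy 2.4.6. Alternatives changed the window, peak threshold, overlap and joining.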

Additional observations from a re-analysis of the deposited data

How the results depend on the processing

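Of 32 values under alternative settings, 27 stayed within 1.5 times the main count or inside the counting interval of the main share, and 5 moved. With −log10 q of at least 10 the H3K27ac count at the Eph receptor genes was 16, and with at least 5 the Chd7 count was 3. Requiring 50% of an H3K27ac peak to be covered by Chd7 left a share of 0%, since Chd7 peaks are narrower. No gene was overlapped by a joined region above the slope cut (0) when peaks within 2 kb of a start were left out or when regions were ranked by width only, so the Ephb2 call rests on its promoter peak. Leaving out peaks outside the gene and nearer to another gene's start, an alternative chosen after seeing the data, gave 27 H3K27ac and 4 Chd7 peaks. A stricter threshold on Top2b peaks was not run, because the tables hold no score. No paired analysis was possible because each condition has 1 library. Depth cannot be read from the tables, and a place without a peak may hold signal below the threshold.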
